A study of Mus musculus with 16 samples.

Results

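The sirtuins Sirt1 to Sirt7 were followed in mouse cerebellum as the probes whose transcript accession belongs to 1 of these 7 genes. The arrays carried 14 such probes among 56605, and all 14 were among the 37253 probes kept for testing. Sirt4 had 3 probes, Sirt3 had 1, and each of the other genes had 2. RNA from mouse cerebellar cortex was hybridized to 16 Agilent arrays of 1 colour, with 4 biological replicates for each genotype and drink, written here as WT veh and WT NR for wild type and as Atm-/- veh and Atm-/- NR for the mutant. The Atm-/- mice were homozygous for the targeted allele of B6;129S4-Atmtm1Bal/J, the WT mice were their littermates, and the labels give all of them as male and 3.5 months old. NR mice drank nicotinamide riboside in water, at 3.5 mg/ml or 12 mM, for 2 months from 6 weeks of age, and veh mice drank water alone. The allele is constitutive and the tissue holds every cerebellar cell type, so a lower signal from fewer cells of a type and from less RNA per cell cannot be told apart.

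Sirtuins are enzymes that consume NAD+ while removing acyl groups from lysines of histones and other proteins. Sirt1, Sirt6 and Sirt7 act mainly in the nucleus, Sirt2 mainly in the cytoplasm, and Sirt3, Sirt4 and Sirt5 in mitochondria. Nicotinamide riboside is turned into NAD+ inside cells by the riboside kinases Nmrk1 and Nmrk2 and the enzymes Nmnat1, Nmnat2 and Nmnat3. The arrays read the level of each sirtuin transcript and say nothing about NAD+ or about enzyme activity.

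Of the 7 genes, Sirt6 and Sirt3 changed, both between Atm-/- NR and Atm-/- veh and with NR over both genotypes. In these comparisons 11.5% and 13.4% of all named genes passed the same test by their brightest probe, so nothing particular to the sirtuins is read from this. Sirt6, a chromatin deacetylase with a part in DNA repair, fell with NR to 0.721 times its level in Atm-/- veh. Sirt3, the main deacetylase of the mitochondrial matrix, rose to 1.34 times that level. Each of the Sirt3 changes failed the test in 9 of the 16 fits that left 1 array out, whereas the brightest Sirt6 probe passed in all of them. No sirtuin probe passed the test between genotypes, with or without NR, or between WT NR and WT veh. The brightest probes of Sirt1, Sirt2, Sirt4, Sirt5 and Sirt7 passed in no comparison.

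The promoter stretches of Sirt6 and Sirt3 are shown because these are the genes that changed. They were taken from RefSeq promoters of build GRCm38.p6, in which all 7 genes were found, with a second start for Sirt3 and for Sirt6. The stretch beside Sirt3, at chr7:140882310-140882423 on the minus strand, holds the 84 bases between its first start and the start of Psmd13, a proteasome subunit gene on the opposite strand, with 30 bases past the start of Psmd13. For Sirt6, 30 bases around each match before the first of its 2 starts here are given, at chr10:81627584-81627613 and chr10:81627690-81627719 on the minus strand. A longer model of Sirt6 reaches into this window, so these bases need not lie before every start of the gene. Capitals mark matches on either strand to CCGGAAG, the core bound by GABP and other ETS factors, and to CGCATGCG, the core of the NRF1 site. The motifs do not overlap each other here.
Sirt3 to Psmd13: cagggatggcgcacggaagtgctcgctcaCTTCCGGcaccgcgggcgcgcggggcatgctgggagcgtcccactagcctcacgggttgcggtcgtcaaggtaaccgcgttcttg
Sirt6, GABP/ETS core: gtcccttcaccaCTTCCGGcggaagcggcc
Sirt6, NRF1: catcaggagggCGCATGCGctctggaaaga

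Windows of Sirt3, Sirt6 and Sirt7 held CCGGAAG, as did 8.86% of all 32851 promoter windows of the same length. CGCATGCG was found for Sirt6 and Sirt7 among the sirtuins and in 1.87% of all windows. The E-box CACGTG, where clock factors can bind, was found for Sirt1 and in 7.15% of all windows. GGGCGG, the GC box of Sp1, was present for every sirtuin except Sirt4 and in 35.7% of all windows. CCAAT, the NF-Y box, was present for Sirt2, Sirt3 and Sirt5 and in 37.4%. These matches describe the sequence only.

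Some facts of the arrays bear on the values below. WT arrays were all on slide 1 and Atm-/- arrays all on slide 2, so an effect of genotype cannot be told apart from one of the slide, and the NR arrays filled the second row of both slides, so an effect of NR cannot be told apart from one of the row. The number of probes well above background ran from 34945 to 37817 on Atm-/- NR arrays and from 39134 to 41905 on Atm-/- veh arrays, without overlap, and its part in the sirtuin differences was not tested. On the array WT veh 4, 4 choroid plexus markers (of 5 listed) averaged 4.20 log2 units above their means over all arrays and 4 forebrain neuron markers (of 4) 3.67, while no other array exceeded 0.92 and 0.93. On 4 arrays, 2 of WT NR and 1 each of Atm-/- veh and Atm-/- NR, the Y-linked genes were not above background, against the label. Xist, an RNA of female cells, was well above background on these 4 arrays and on none of the other 12. By these signals the 4 arrays read as female, and the groups were not balanced for sex. All 5 listed markers of each of granule cells, Purkinje cells and Bergmann glia with astrocytes were measured. The mean Purkinje list value (its genes' deviations from their means over all arrays) went from -0.21 ± 0.27 without NR to 0.070 ± 0.14 with it in WT mice, and stood at -0.031 ± 0.19 and 0.17 ± 0.085 in the corresponding Atm-/- groups (SD, n = 4), which overlap. Among the 5, only Car8 was called with NR over both genotypes, higher by 1.26 (SE 0.22, limma adjusted p = 0.00656), and in Atm-/- mice, by 1.10. In WT mice Car8 differed by 1.43 (limma adjusted p = 0.371). The median difference of the 5 genes with NR was 0.027 over both genotypes and -0.024 in Atm-/- mice. Group means of the granule cell list stayed between -0.034 and 0.023 and those of the glial list between -0.046 and 0.059. Genes of the glial list went in both directions between Atm-/- NR and Atm-/- veh, with a median difference of 0.027. Gfap, an astrocyte gene, differed by -0.75 on its brightest probe (limma adjusted p = 0.0735) and by -1.06 on another (limma adjusted p = 0.0312). Aqp4, of the same list, differed by 0.52 on 1 probe (limma adjusted p = 0.118) and by -0.24 on the other (limma adjusted p = 0.435). The part of these markers in the sirtuin differences was not tested. The Atm probe that separated the genotypes most was at 8.63 to 9.03 in WT veh and 8.52 to 8.65 in WT NR, and at 7.91 to 8.08 in Atm-/- veh and 7.72 to 7.88 in Atm-/- NR. The other Atm probe was not called between genotypes (-0.35 without NR and -0.12 with NR, limma adjusted p = 0.221 for the first), and 1 Atm-/- NR array reached 9.23 on it, above every WT NR array. Where the probes lie relative to the targeted part of the gene is not given in the sources used here.

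All sirtuin values below are log2 signals after quantile normalization. Probes differ in how strongly they bind, so levels are compared between arrays for 1 probe and never between probes. A probe was called where limma's p-value, adjusted by Benjamini-Hochberg over the 37253 probes, was under 0.05.

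**Figure D1:**
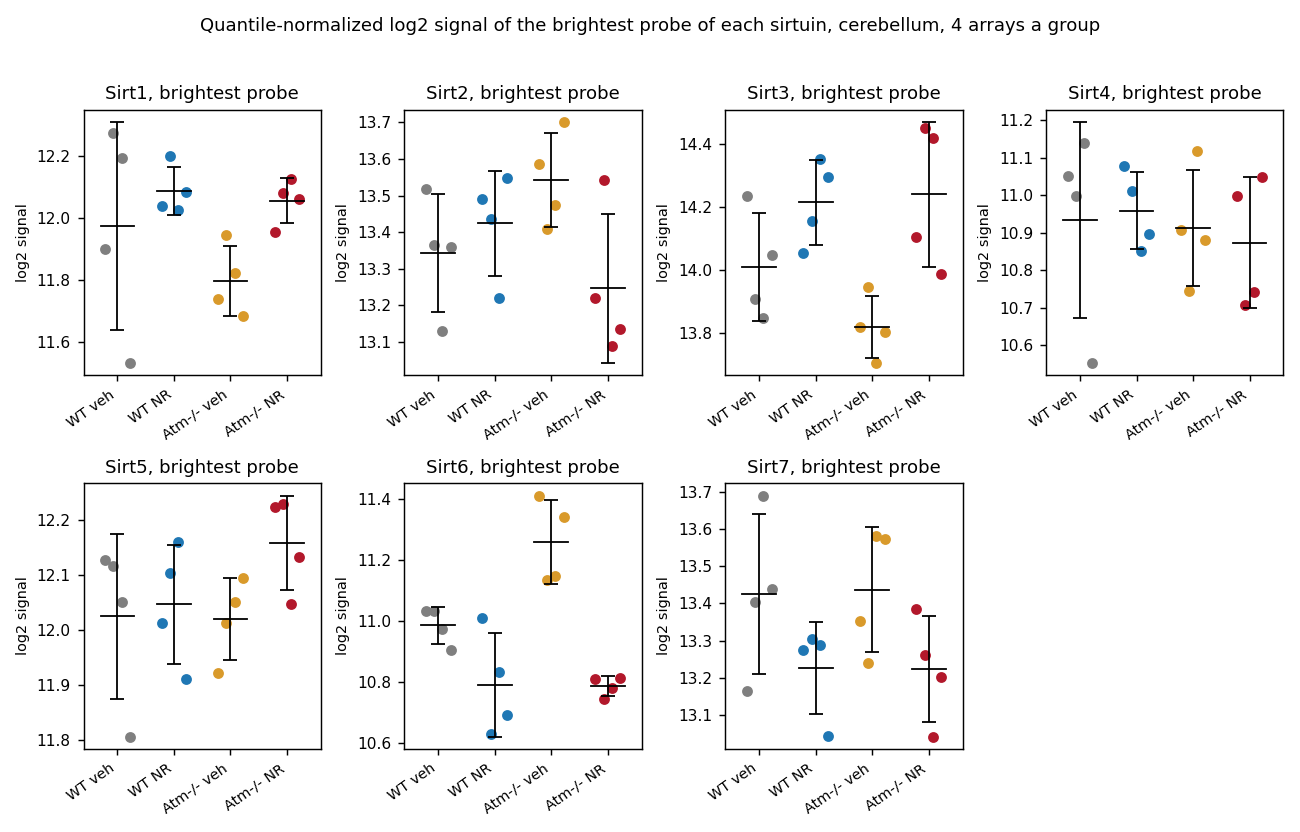
Log2 signal (y axis, with its own range in each panel) of the brightest probe of each sirtuin in the 4 groups (x axis). Points are arrays, horizontal bars are group means and error bars are 1 SD (n = 4). The Sirt6 points of Atm-/- NR lie between 10.74 and 10.81, all below those of Atm-/- veh, and the Sirt3 points of Atm-/- NR lie above every point of Atm-/- veh.

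Sirt6 deacetylates histone H3 at telomeres and damaged DNA. Its brightest probe read 11.41, 11.13, 11.15 and 11.34 on the Atm-/- veh arrays and 10.81, 10.74, 10.78 and 10.81 on the Atm-/- NR arrays. The WT veh arrays read 11.03, 11.03, 10.97 and 10.90, and the WT NR arrays 11.01, 10.63, 10.83 and 10.69. Every Atm-/- veh array was thus above every other array, the 4 Atm-/- NR arrays lay close together (SD 0.032), and 1 WT NR array sat among those of WT veh. Sirt6 fell by 0.47 in Atm-/- NR compared with Atm-/- veh (SE 0.090, 95% interval -0.66 to -0.28, limma adjusted p = 0.0114). Over both genotypes the NR difference was -0.33 (SE 0.063, limma adjusted p = 0.00884). Both calls held under each alternative fitted with limma, with adjusted p from 0.00542 to 0.0451 for the first and from 0.00433 to 0.0255 for the second. At the methods' full threshold, which adds limits on size and signal, no sirtuin probe was called in any comparison it was run on. That threshold asks for an absolute z-ratio (the difference in z-scores over the SD of all such differences) of at least 1.5, and the z-ratio of this Sirt6 probe was -1.10 both in Atm-/- mice and over both genotypes. That of Sirt3 was 1.002 and 1.04.

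By mean, Atm-/- veh (11.26) was followed by WT veh (10.99) and then by both NR groups (10.79 each), which overlapped. In WT mice alone the Sirt6 difference was -0.20 (SE 0.090, limma adjusted p = 0.650). Between untreated genotypes it was 0.27 (SE 0.090, limma adjusted p = 0.226), although the groups did not overlap. The comparison of Atm-/- NR with Atm-/- veh and that of Atm-/- veh with WT veh share the Atm-/- veh arrays, so these values are not separate evidence. The NR effect in Atm-/- minus that in WT was -0.28 (95% interval -0.55 to -0.0041), with a limma p of 0.0470 before and 0.839 after adjustment, so a difference between genotypes in the NR effect on Sirt6 was not shown.

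The dimmer Sirt6 probe had the same direction near the limit of detection. It was well above background on all 4 arrays of the other groups and on 2 of the 4 Atm-/- NR arrays. Its values were 6.32, 6.32, 5.63 and 5.54 in Atm-/- veh and 5.21, 5.58, 5.12 and 5.17 in Atm-/- NR, so 1 treated array lay within the untreated range. The difference was -0.68 (SE 0.20, limma adjusted p = 0.0476). This call was lost when any of 12 arrays was left out, all but WT veh 1 and 4 and Atm-/- veh 3 and 4, with adjusted p up to 0.139. With another background correction (normexp) the difference was -0.29. Over the 16 arrays, deviations of both Sirt6 probes from their group means correlated with r = 0.22, and the values themselves with r = 0.66.

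Sirt3 activates matrix enzymes such as Sod2, Idh2 and Acadl by deacetylation. Its single probe read 13.82, 13.95, 13.71 and 13.80 in Atm-/- veh and 14.11, 14.45, 14.42 and 13.99 in Atm-/- NR. In WT veh it read 14.23, 13.91, 13.85 and 14.05, and in WT NR 14.05, 14.16, 14.35 and 14.30. The lowest Atm-/- NR array exceeded the highest Atm-/- veh array by less than the spread within Atm-/- NR. By mean the order was Atm-/- NR, WT NR, WT veh and Atm-/- veh, and each group overlapped the next. Sirt3 rose by 0.42 in Atm-/- NR compared with Atm-/- veh (SE 0.12, 95% interval 0.17 to 0.68, limma adjusted p = 0.0427) and by 0.31 over both genotypes (SE 0.084, limma adjusted p = 0.0317). In WT mice alone the difference was 0.21 (SE 0.12, limma adjusted p = 0.737), and between untreated genotypes it was -0.19 (SE 0.12, limma adjusted p = 0.478). The NR effect in Atm-/- minus that in WT was 0.22 (95% interval -0.15 to 0.58, limma adjusted p = 0.850).

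The Sirt3 call stood close to the threshold. In Atm-/- mice it was lost without WT veh 2, WT NR 2, 3 or 4, Atm-/- veh 1, 3 or 4, or Atm-/- NR 2 or 3 (9 arrays in turn, adjusted p up to 0.127), while the difference stayed between 0.35 and 0.50. Over both genotypes it was lost without WT veh 2 or 3, WT NR 3 or 4, Atm-/- veh 1, 3 or 4, or Atm-/- NR 2 or 3, with adjusted p up to 0.0665. Without WT veh 4, the array with choroid plexus and forebrain signal, both calls remained, at adjusted p = 0.0421 and 0.0364. On the 12 arrays with Y-linked signal the Sirt3 differences were 0.47 and 0.36 (limma adjusted p = 0.0851 and 0.0596). The call in Atm-/- mice was also lost with no filter on dim probes (limma adjusted p = 0.0535) and with only the arrays of the groups compared (0.0772).

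Psmd13, which starts beside Sirt3 on the other strand, differed by -0.064 between Atm-/- NR and Atm-/- veh (SE 0.063, limma adjusted p = 0.549). Sirt2 has a neighbour of the same arrangement in Nfkbib, which encodes an inhibitor of NF-kB. Nfkbib fell by 0.41 in that comparison (SE 0.080, limma adjusted p = 0.0124), where Sirt2 missed the threshold. Ankrd24, across from Sirt6, differed by 0.18 (SE 0.093, limma adjusted p = 0.229).

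**Figure D2:**
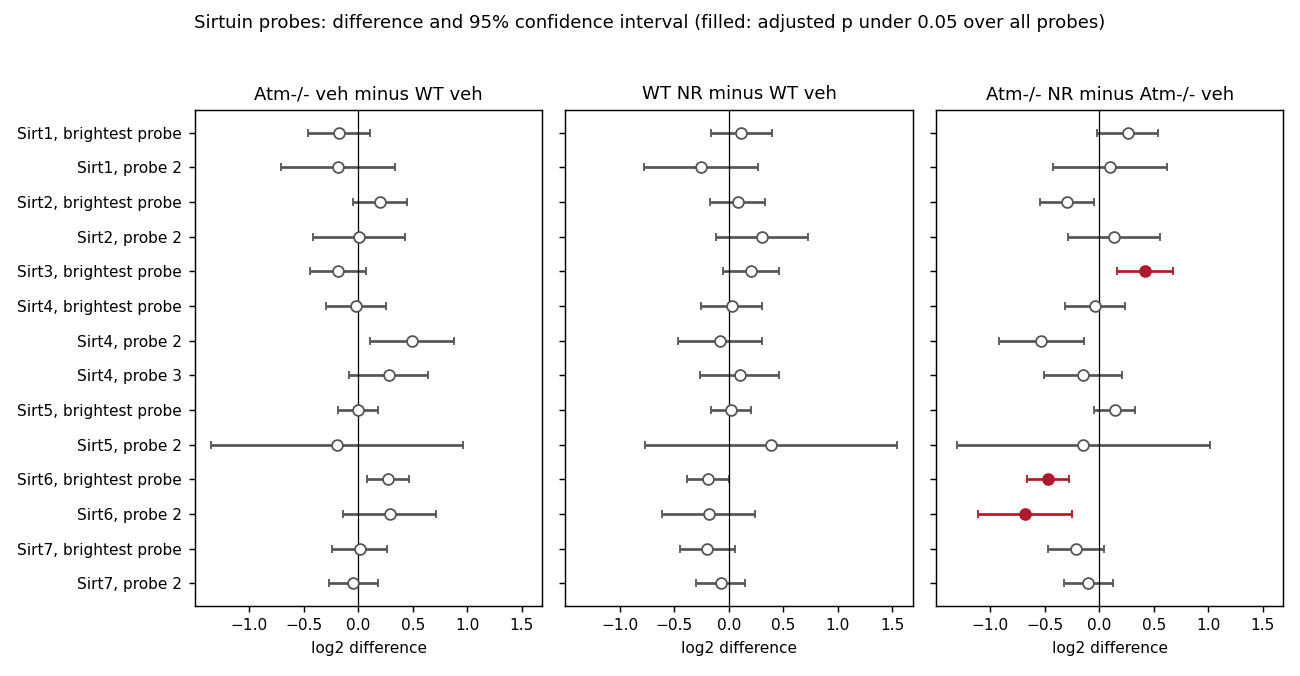
Log2 difference (x axis) of each of the 14 sirtuin probes (y axis) in 3 comparisons, with 95% confidence intervals from limma. Filled red points passed the test, which the Sirt3 probe and both Sirt6 probes did in Atm-/- NR minus Atm-/- veh, at 0.42, -0.47 and -0.68, and no probe did in the other panels.

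Counted over probes, 3 of 14 sirtuin probes were called in Atm-/- NR compared with Atm-/- veh, where 9.04% of all probes were called. These 3 probes, 21.4% of the 14, stand for 2 genes. Over both genotypes NR changed 2 of 14 (14.3%), against 10.8% of all probes. Before adjustment 5 of 14 had a limma p under 0.05 in either comparison (27.3% and 27.4% of all probes). Groups did not overlap for 3 of the 14 probes in Atm-/- NR against Atm-/- veh (the brightest of Sirt1, Sirt3 and Sirt6), and for 20.2% of all probes. With 14 probes, several of them on the same transcript, nothing particular to the sirtuins is read from these shares.

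In Atm-/- veh compared with WT veh limma called 0 of 14 (0.0537% of all probes), and 2 of 14 had an unadjusted p under 0.05 (14.6% of all probes). In Atm-/- NR compared with WT NR it also called 0 of 14 (0.0537%), and 0 passed unadjusted (5.21%). In WT NR compared with WT veh it called 0 of 14 (0% of all probes), with 1 passing unadjusted (7.62%). Over both treatments the genotypes differed for 0 of 14 (0.201%), with 0 passing unadjusted (12.9%). The methods' t-test on z-scores of the kept probes also called 0 sirtuin probes in each of these 4 comparisons after adjustment. At the methods' full threshold it called 0 as well, against 22, 10, 0 and 66 of all probes. By its unadjusted p alone 2, 0, 0 and 0 sirtuin probes passed. The difference between the NR effects was called for 0 of 14 (0% of all probes), and 2 passed unadjusted (5.27%).

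Sirt1 deacetylates p53, Foxo factors and the coactivator Ppargc1a. The brightest Sirt1 probe read 11.74, 11.94, 11.82 and 11.68 in Atm-/- veh and 11.95, 12.08, 12.13 and 12.06 in Atm-/- NR. It read 12.04, 12.20, 12.03 and 12.08 in WT NR, and spread most in WT veh, at 11.90, 12.27, 12.19 and 11.53, with the low value on WT veh 4. The lowest treated Atm-/- array was just above the highest untreated one, but the difference of 0.26 did not pass (SE 0.13, 95% interval -0.022 to 0.54, limma adjusted p = 0.220). By mean the order was WT NR, Atm-/- NR, WT veh and Atm-/- veh, and each group overlapped the next, as was also the case for the brightest probes of Sirt2, Sirt4, Sirt5 and Sirt7. The second Sirt1 probe differed by 0.096 in the same comparison and by -0.26 between WT NR and WT veh, where the brightest differed by 0.11.

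Sirt7 acts in the nucleolus and favours transcription of ribosomal RNA genes. Its brightest probe read 13.35, 13.24, 13.58 and 13.57 in Atm-/- veh and 13.39, 13.26, 13.04 and 13.20 in Atm-/- NR. The WT arrays covered the same range, at 13.17, 13.41, 13.69 and 13.44 for WT veh and 13.27, 13.30, 13.29 and 13.04 for WT NR. The means of both NR groups, 13.23 and 13.22, were below both veh means, 13.43 and 13.44, with single arrays overlapping. Over both genotypes the NR difference was -0.21 (SE 0.084, 95% interval -0.39 to -0.025), with a limma p of 0.0285 before and 0.132 after adjustment. In Atm-/- mice alone it was -0.21 (SE 0.12, limma adjusted p = 0.264). The second Sirt7 probe lay in a narrow range, 8.28 to 8.73 over all arrays, and differed by -0.088 over both genotypes (SE 0.074).

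Sirt2 deacetylates alpha-tubulin and is known for its abundance in myelinating oligodendrocytes. The brightest probe read 13.59, 13.41, 13.47 and 13.70 in Atm-/- veh and 13.22, 13.54, 13.09 and 13.14 in Atm-/- NR. It read 13.52, 13.36, 13.13 and 13.36 in WT veh and 13.49, 13.44, 13.22 and 13.55 in WT NR. The array Atm-/- NR 2 lay within the Atm-/- veh range, and the other 3 of its group lay below it. The difference of -0.30 did not pass (SE 0.12, 95% interval -0.55 to -0.045, limma adjusted p = 0.122). The NR effect in Atm-/- minus that in WT was -0.38 (SE 0.17), with a limma p of 0.0389 before and 0.839 after adjustment. The second Sirt2 probe differed by 0.13 in Atm-/- NR compared with Atm-/- veh (SE 0.20), in the opposite direction, although deviations of the Sirt2 probes from their group means correlated with r = 0.67 over 16 arrays.

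Oligodendrocyte markers varied beside Sirt2. The mean of 8 listed markers (8 of 8 measured, each as its deviation from its mean over all arrays) ran from -0.49 to 0.24 in WT veh, from 0.089 to 0.65 in WT NR, from -0.15 to 0.066 in Atm-/- veh and from -0.37 to 0.014 in Atm-/- NR. Within groups it correlated with the brightest Sirt2 probe with r = 0.51 and with Sirt3 with r = 0.23 (16 arrays, as a description). With Sirt1, Sirt7, Sirt5, Sirt4 and Sirt6 the coefficients were negative (r = -0.50, -0.52, -0.33, -0.18 and -0.12). Those of Sirt1 and Sirt7 were thus of the size seen for Sirt2 but of the opposite sign. The part of the oligodendrocyte markers in the sirtuin values was not tested.

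Sirt4 removes lipoyl groups from pyruvate dehydrogenase and acts on malonyl-CoA decarboxylase. Its brightest probe differed little, at 10.91, 10.74, 11.12 and 10.88 in Atm-/- veh and 11.00, 10.71, 10.74 and 11.05 in Atm-/- NR. The WT veh arrays read 11.05, 11.00, 11.14 and 10.55, the last again on WT veh 4, and the WT NR arrays 11.08, 11.01, 10.85 and 10.90. The difference in Atm-/- mice was -0.039 (SE 0.13, 95% interval -0.32 to 0.24, limma adjusted p = 0.877). The middle Sirt4 probe gave another picture, with 9.01, 8.35, 9.00 and 9.14 in Atm-/- veh and 8.52, 8.30, 8.31 and 8.25 in Atm-/- NR. All but 1 of the untreated Atm-/- arrays stood above the treated ones and above every WT array, whose range was 7.82 to 8.67. The middle probe differed by -0.53 in Atm-/- NR compared with Atm-/- veh (SE 0.18, limma adjusted p = 0.0780) and by 0.49 in Atm-/- veh compared with WT veh (SE 0.18, limma adjusted p = 0.262). It passed the first of these tests without WT NR 2 or without Atm-/- veh 2 (limma adjusted p = 0.0487 and 0.0186), and with other arrays left out the adjusted p reached 0.190. The third Sirt4 probe differed by -0.15 and 0.28 (SE 0.17 for both).

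Sirt5 removes malonyl, succinyl and glutaryl groups. Its brightest probe had the narrowest range of the 7 brightest probes, 11.81 to 12.23 over the 16 arrays. It read 11.92, 12.01, 12.05 and 12.10 in Atm-/- veh and 12.22, 12.23, 12.05 and 12.13 in Atm-/- NR, a difference of 0.14 (SE 0.086, 95% interval -0.047 to 0.32, limma adjusted p = 0.317). Its WT veh values were 12.13, 12.12, 12.05 and 11.81 and its WT NR values 12.01, 12.10, 12.16 and 11.91, and these groups overlap. The second Sirt5 probe, placed on a predicted transcript, was well above background on 11 of 16 arrays and on 0 of 4 in Atm-/- NR. Its value was 8.02 on WT NR 2, with a processed signal of 309 before normalization, and 4.49 to 5.59 on the other 15 arrays, where that signal did not exceed 58.1.

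**Figure D3:**
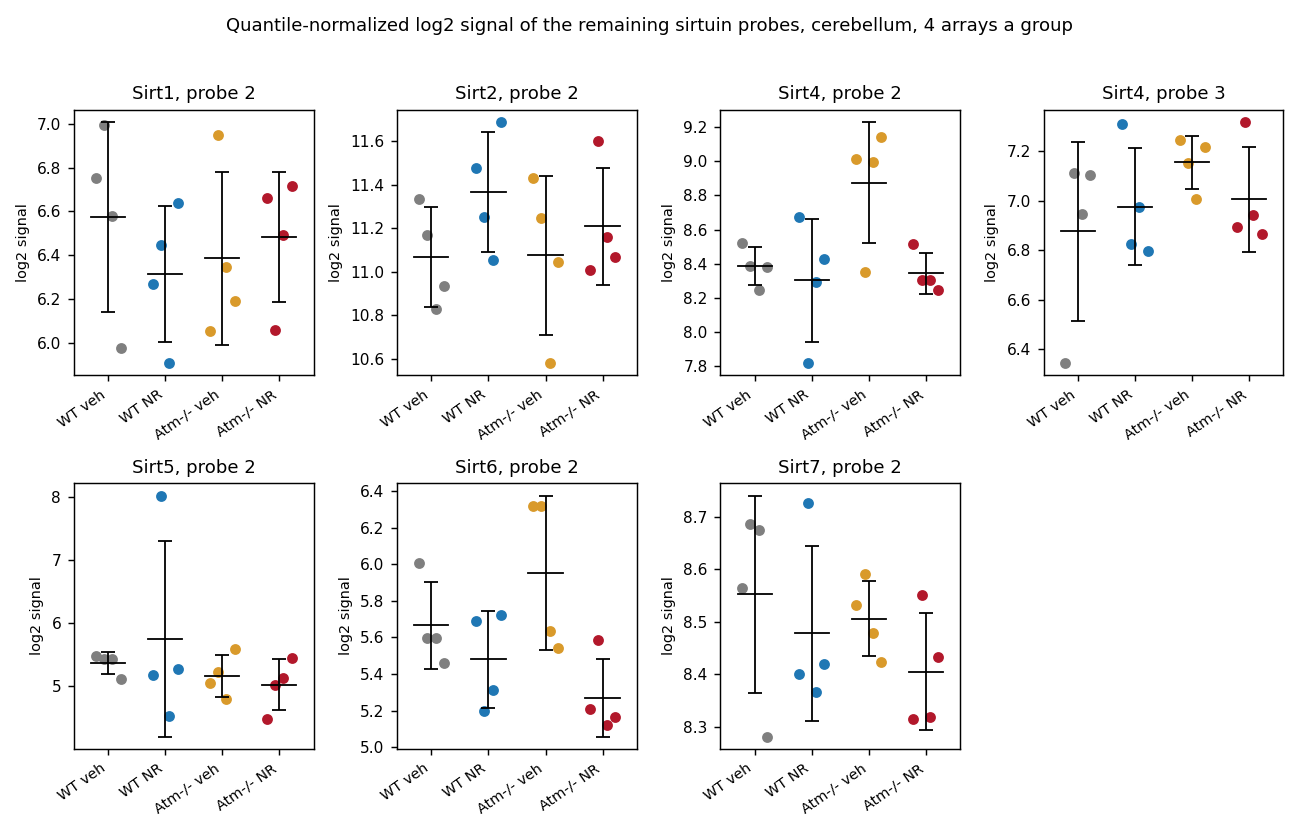
Log2 signal (y axis, with its own range in each panel) of the 7 sirtuin probes that were not the brightest of their gene, by group (x axis). Points are arrays, horizontal bars are means and error bars are 1 SD (n = 4). The middle Sirt4 probe (probe 2) is highest on 3 of the 4 Atm-/- veh arrays, and the second Sirt5 probe has 1 array at 8.02.

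Probes of 1 gene did not always move together. Deviations from group means correlated with r = 0.64 for the Sirt1 probes, 0.21 and -0.35 for the middle and dimmest Sirt4 probes with the brightest, 0.11 for Sirt5 and 0.051 for Sirt7 (16 arrays each). Between genes, the brightest probes of Sirt3 and Sirt6 had r = -0.73 over all 16 values and -0.21 within groups, so most of their opposition lay between the groups. Sirt3 and Sirt7 had r = -0.74 over all values and -0.61 within groups. These coefficients are descriptions, since all probes of an array share its RNA and its normalization.

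The genes whose deviations from group means most resembled those of Sirt6, among 16736 other named genes over the 16 arrays, were Foxd3, Itpkc and Kctd17 (r = 0.93, 0.92 and 0.91). For Sirt3 they were Pou3f3, Asb2 and Ap1s2 (0.94, 0.92 and 0.92), and for Sirt1 Krr1, Ppp1r16b and Atf4 (0.95, 0.95 and 0.94). Eif3i, Map3k11 and Lyrm9 came closest to Sirt2 (0.86, 0.82 and 0.78), Akap8, Med12 and Snhg20 to Sirt4 (0.93, 0.93 and 0.92), Phf7, Cwf19l2 and A430035B10Rik to Sirt5 (0.89, 0.89 and 0.88), and Uhrf1bp1l, Sbno2 and Bag5 to Sirt7 (0.97, 0.96 and 0.95). They are the highest of many coefficients and were given no test.

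Regulators of sirtuins, their substrates and targets, and the enzymes of NAD+ supply from nicotinamide and its riboside were read from lists of 44 genes, of which 43 had a kept probe (Cps1 did not). In Atm-/- NR compared with Atm-/- veh 8 of the 43 were called, where 11.5% of all named genes were called by their brightest probe. Of 8 regulators, 1 rose and 1 fell, with a median difference of -0.0036. Of 29 measured substrates and targets, 2 rose and 3 fell, with a median of 0.029. Of 6 NAD+ supply genes, 0 rose and 1 fell, with a median of -0.033. The median of all named genes was 0.036, so the lists as wholes lay close to it.

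Trp53, encoding p53, fell by 0.74, from 9.08 ± 0.21 to 8.34 ± 0.19 (SD, n = 4; limma adjusted p = 0.0165). Suv39h1, a histone methyltransferase bound by Sirt1, fell by 0.47 (SE 0.10, limma adjusted p = 0.0165), though its second probe differed by 0.11. Gabpb1, a GABP subunit deacetylated by Sirt7, fell by 0.41 (SE 0.10, limma adjusted p = 0.0241), and its other probes ranged from -0.27 to 0.060. Among regulators, the acetyltransferase Ep300 fell by 0.36 (SE 0.10, limma adjusted p = 0.0483), with 0.12 for its other probe, and the deacetylase Hdac6 rose by 0.30 (SE 0.082, limma adjusted p = 0.0369).

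Mlycd, malonyl-CoA decarboxylase and a Sirt4 substrate, rose by 0.40, from 13.68 ± 0.059 to 14.08 ± 0.038 (SD, n = 4; limma adjusted p = 0.00894), while its second probe differed by 0.014. Acss1, the mitochondrial acetyl-CoA synthetase that Sirt3 activates, rose by 0.37 (SE 0.088, limma adjusted p = 0.0216). Other Sirt3 substrates did not pass, with 0.27 for Sod2, 0.24 for Acadl and 0.022 for Idh2 (limma adjusted p = 0.242, 0.102 and 0.931). Mlycd and Suv39h1 kept their calls with each array left out, and Trp53 lost its call without Atm-/- veh 1 or Atm-/- NR 3 (adjusted p up to 0.0576). The other calls were less stable, and of the 16 fits with 1 array left out Acss1 lost its call in 4, Nmnat2 in 5, Gabpb1 and Hdac6 in 6 each, and Ep300 in 11. With the mean over all probes of a gene, Suv39h1, Gabpb1, Ep300 and Mlycd lost their calls and 4 of the 43 remained. On the 12 arrays with Y-linked signal Mlycd and Trp53 were called. The count of 8 fell to between 2 and 5 without Atm-/- veh 1, 3 or 4 or Atm-/- NR 2, 3 or 4.

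Of the NAD+ supply genes, Nmnat2, the Nmnat enzyme of axons, fell by 0.43 (SE 0.10, limma adjusted p = 0.0249). The riboside kinase Nmrk1 differed by -0.44 (SE 0.15, limma adjusted p = 0.0782) and Nampt, the salvage enzyme, by -0.18 (SE 0.096, limma adjusted p = 0.237). Over both genotypes 8 of the 43 genes were called, where 13.4% of all named genes were, and they were the same as in Atm-/- mice except that the clock factor Arntl (-0.26, limma adjusted p = 0.0282) took the place of Ep300. The other Arntl probes differed by -0.29 and 0.0094 (limma adjusted p = 0.0234 and 0.966). Between genotypes over both treatments limma called Dlat alone, a subunit of pyruvate dehydrogenase, at -0.38 (SE 0.066, adjusted p = 0.0357), where 0.221% of named genes were called. That call was lost without each of 12 arrays, that is all but WT veh 1 and 4, WT NR 1 and WT NR 4.

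Groups did not overlap for 17 of the 43 listed genes in Atm-/- NR against Atm-/- veh (26.3% of all named genes), 5 in Atm-/- veh against WT veh (8.74%), 2 in Atm-/- NR against WT NR (4.53%) and 1 in WT NR against WT veh (4.58%). The last 3 comparisons called no listed gene, and the values that follow are those furthest apart in each direction. Polr1a, a subunit of RNA polymerase I, differed by -0.42 between Atm-/- veh and WT veh (SE 0.10, limma adjusted p = 0.172), and Nmnat2 by 0.45 (SE 0.10, limma adjusted p = 0.163). Between Atm-/- NR and WT NR, Dlat differed by -0.38 (SE 0.093, limma adjusted p = 0.397), and no listed gene was higher without overlap. In WT NR compared with WT veh the gene was Suv39h1, at -0.37 (SE 0.10, limma adjusted p = 0.494).

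**Figure D4:**
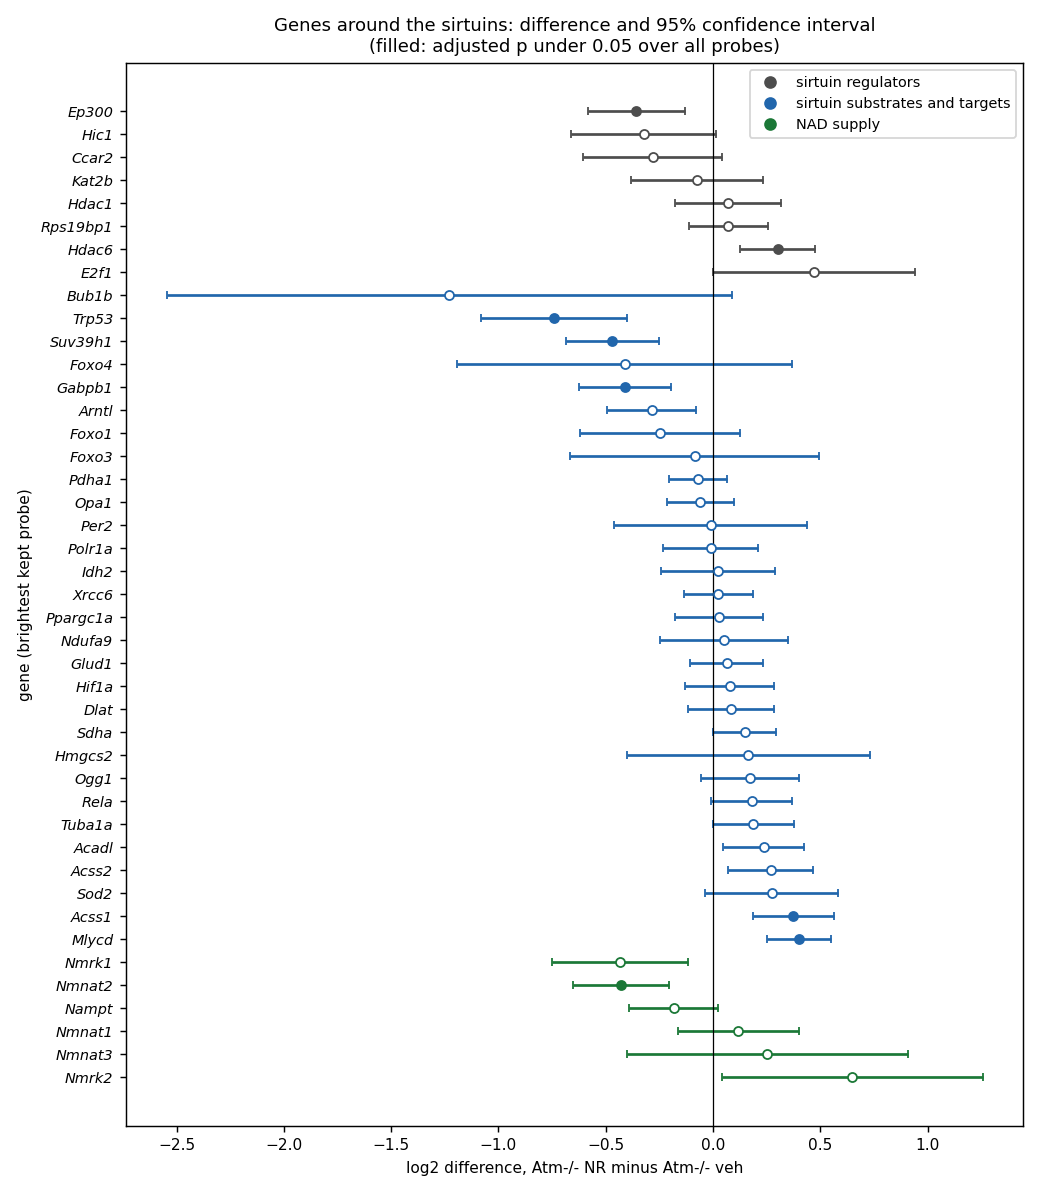
Log2 difference between Atm-/- NR and Atm-/- veh (x axis) of the brightest kept probe of 43 listed genes (y axis), with 95% confidence intervals from limma and colours for the 3 lists. Filled points are the 8 genes that passed the test, from Trp53 at -0.74 to Mlycd at 0.40.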

How the data were processed

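The authors deposited Agilent Feature Extraction output for 16 arrays, from which the processed signal was used, an intensity after local background subtraction that was not normalized between arrays. They also deposited a table of scores (z-scores of normalized signals), which was used as an alternative.

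Control spots were left out. A probe counted as present on an array if a share of 0.5 or more of its spots stood well above background. Presence on the 4 arrays of any 1 group was required. Signals were put on the log2 scale and quantile normalized, spots marked as outliers were left out, and spots of a probe were averaged. Of 56605 probes 37253 were kept. Accessions named 32994 of all probes through the RefSeq gene table of GRCm38.p6. Because the array design used a different build, this table gave the probes names and no positions. Its gene positions were used to find the neighbours of the sirtuin genes. A gene was read from its brightest kept probe (16737 named genes).

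The 4 group means were fitted in limma 3.58.1 (R 4.3.3) with 12 residual degrees of freedom, and p-values were adjusted by Benjamini-Hochberg over all kept probes. The 7 comparisons were the 4 between single groups, genotype over both treatments, NR over both genotypes, and the difference of the NR effects. Replicates were labelled biological, and 4 arrays a group limit the precision. Saturated spots were not found. The fit was tested on simulated data.

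The same replicate numbers recur in every group. Alternatives fitted with limma were another background correction and scaling, the deposited z-scores, no filter, other moderation, a replicate block and the mean over a gene's probes. Others were fits with only the groups compared and with each array left out. The methods' t-test was run on z-scores made from the kept probes after quantile normalization. Its p stood in for the z-test p that the methods name in their full threshold, so the counts there need not equal theirs. A fit on the 12 arrays with Y-linked signal and calls by the t-test's unadjusted p alone were chosen after seeing the data. The sirtuins and the gene lists were chosen with earlier results of these data known. Listed genes are named where they passed the test and, in each comparison, for the largest rise and the largest fall among those whose groups did not overlap, together with Sod2, Acadl, Idh2, Nmrk1 and Nampt, chosen after their values were seen.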

Additional observations from a re-analysis of the deposited data

Results flagged for a closer look

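Of 56 groups of 4 arrays (14 probes in 4 groups), 4 held a sirtuin value far from the other 3 of its group by Dixon's test, and chance alone gives about 1 in 20. The third Sirt4 probe read 7.32 on Atm-/- NR 2. The second Sirt5 probe read 5.11 on WT veh 4. The brightest Sirt7 probe read 13.04 on WT NR 4, and the second Sirt7 probe read 8.73 on WT NR 2.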

How the results depend on the processing

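In Atm-/- NR against Atm-/- veh, 3 sirtuin probes were called, and 1 when only the arrays of these groups were fitted, 1 on the 12 arrays with Y-linked signal, and by the methods' t-test 0 at their full threshold (p, false discovery rate of at most 0.30, z-ratio, signal and ANOVA), 1 after adjustment and 6 by its unadjusted p alone. With each array left out the count ran from 1 to 3, with 1 without WT veh 2, WT NR 3, WT NR 4, Atm-/- veh 1, Atm-/- NR 2 or Atm-/- NR 3. Over both genotypes the 2 calls became 1 with the replicate block, 1 on the 12 arrays, 0 at the methods' full threshold and 4 by the t-test's unadjusted p alone, and 1 to 3 with each array left out, with 1 without WT veh 2 or 3, WT NR 3 or 4, Atm-/- veh 1, or Atm-/- NR 2 or 3. In Atm-/- veh against WT veh the t-test's unadjusted p alone gave 2, and the full threshold 0. Sirt5 turned to -0.0036 when its probes were averaged, and Sirt4 ran from -0.097 to 0.030 with each array left out. At the full threshold the z-ratios of the brightest Sirt6 probe (-1.10) and of Sirt3 (1.002) fell short of 1.5 in Atm-/- mice, and the dimmer Sirt6 probe reached -1.59 but had a mean z-score of -1.20, below the 0 required. The cause of the other changes was not tested. Over all probes, the 3366 calls in Atm-/- NR against Atm-/- veh ran from 862 to 4405 with each array left out. They became 438 on the 12 arrays, 224 at the methods' full threshold, 3184 by the t-test after adjustment and 10019 by its unadjusted p alone. Over both genotypes the 4035 calls became 1862, 291, 3634 and 9758 in the same order, and ran from 2265 to 4695. Of the 4035, 2020 were higher with NR, against 1763 of 4457 on the deposited z-scores. Of 49 differences (7 genes in 7 comparisons) 26 kept their sign under every alternative run, and the largest that changed sign was 0.14 in size. Replicate numbers did not pair the arrays: deviations of same-numbered arrays correlated with r from -0.328 to 0.367 (24 pairs), and 2 of 16 arrays correlated best with their own number. With the replicate block 3 sirtuin probes were called in Atm-/- NR against Atm-/- veh, both of Sirt6 and the middle one of Sirt4 (limma adjusted p = 0.0452) but not that of Sirt3 (0.0727, and 0.0580 over both genotypes). Fits with only the groups compared do not exist for the effects over both genotypes or treatments, and the t-test was not run on the difference of the NR effects. The second probes of Sirt5 and Sirt6, near background, limit what can be read from them.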
